A study of Mus musculus with 15 samples.

Results

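The promoters described here belong to genes for ion channels, their auxiliary subunits and the intracellular calcium release channels, in a promoter-capture Hi-C study of mouse hippocampal neurons. They were taken from the deposited matrix of interaction scores by gene symbol: the Kcn, Cacn, Scn, Hcn, Clcn, Ano, Chrn, P2rx, Ryr and Itpr families, Trp channels of the C, M and V subfamilies, Dpp6 and Dpp10, leaving out Cacna2d1 and Cacna2d2. The rule found 75 promoters of the 4429 in the matrix, with 612 of its 36353 listings; a listing is a pair of a promoter and a distal HindIII fragment. One of the 75, Trpc4ap, was picked up by its symbol alone, since it encodes a protein that associates with a channel and is not itself a channel.

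Promoter-capture Hi-C joins DNA ends that lie close together in fixed nuclei and enriches the products that contain a baited promoter, so that each listing is a contact of a promoter with another stretch of the genome. Hippocampal tissue of 10 to 12 mice was pooled for 10000 nuclei per condition, and nuclei positive for NeuN, a marker of neurons, and for the fluorescent reporter were sorted. All 4 groups share the strain ArcCreERT2 x R26R-STOP-floxed-eYFP with the genotype +/+, in which Cre driven from the Arc gene marks cells active while 4-hydroxytamoxifen is present, given 1 h before contextual fear conditioning. The groups, named as in the titles, are Basal (3 libraries) and Early, Late and Reactivated (4 each); the labels do not say how Basal animals were treated, nor which group was collected 1.5 to 2 h or 5 days after conditioning, and the collection days they give per sample go against the protocol and were not used. Contact scores do not measure expression, so the neuronal identity of the nuclei could not be checked against marker genes. Where nothing says that libraries came from separate pools of mice, p-values measure only the spread between these libraries.

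Ion channels are membrane proteins that let selected ions pass and so set the resting potential, the threshold and the shape of the action potential, and the calcium signals of a neuron. Voltage-gated potassium channels are built from pore subunits and from auxiliary proteins that steer their trafficking and gating. In hippocampal neurons, potassium, sodium, calcium and HCN channels together set how a cell answers synaptic input, and their genes are among those studied for changes in excitability after learning. A contact between a promoter and a distal fragment is a feature of chromosome folding and says nothing by itself about how strongly the gene is transcribed.

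Promoter sequence was taken from RefSeq (build GRCm38.p6), as the 250 bases upstream of each annotated start, for the 49 of the 75 genes that the sequence table holds (70 windows, some genes having several starts). The fragments of the matrix carry mm9 coordinates, so the 2 sets of positions cannot be compared. The windows printed are those of Dpp10, the ion channel promoter with the most listed fragments; Kcnf1, whose promoter contains a site for the enzyme used in the assay; Kcnip4, with a recurrent fragment; and Chrna10, with the smallest p of the group comparisons. Each reads 5′ to 3′ toward the start of transcription, all 4 genes lying on the minus strand, and capitals mark matches to the motifs searched on both strands.
Dpp10 promoter (chr1:124045560-124045809): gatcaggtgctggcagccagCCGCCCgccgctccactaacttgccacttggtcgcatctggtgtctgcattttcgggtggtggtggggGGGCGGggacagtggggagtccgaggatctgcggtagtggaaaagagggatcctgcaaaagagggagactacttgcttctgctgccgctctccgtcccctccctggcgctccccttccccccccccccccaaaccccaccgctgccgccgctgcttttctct
Kcnf1 promoter (chr12:17176889-17177138): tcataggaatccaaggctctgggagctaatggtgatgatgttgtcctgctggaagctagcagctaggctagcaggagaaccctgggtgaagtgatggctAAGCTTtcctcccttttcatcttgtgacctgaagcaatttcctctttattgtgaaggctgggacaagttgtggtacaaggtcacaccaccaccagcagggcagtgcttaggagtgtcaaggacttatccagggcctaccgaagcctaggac
Kcnip4 promoter, 1 of its 2 windows (chr5:49285660-49285909): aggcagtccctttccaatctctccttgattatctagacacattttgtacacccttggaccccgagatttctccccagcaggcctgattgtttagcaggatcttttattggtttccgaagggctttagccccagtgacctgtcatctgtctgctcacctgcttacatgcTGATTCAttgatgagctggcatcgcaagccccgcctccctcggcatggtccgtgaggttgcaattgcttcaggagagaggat
Chrna10 promoter (chr7:102116714-102116963): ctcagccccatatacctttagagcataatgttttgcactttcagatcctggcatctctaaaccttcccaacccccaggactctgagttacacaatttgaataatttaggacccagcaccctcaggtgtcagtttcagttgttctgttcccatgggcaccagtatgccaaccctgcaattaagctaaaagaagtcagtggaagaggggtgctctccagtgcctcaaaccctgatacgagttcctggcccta
The capitals mark 2 GC boxes in the Dpp10 window, a HindIII site in the Kcnf1 window, and TGATTCA in the Kcnip4 window. TGATTCA matches the loose AP-1 pattern searched, TGANTCA, in which N can be any base. The Chrna10 window holds none of the 6 motifs.

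Of the 70 ion channel windows, 25 (35.7%) held the Sp1 GC box GGGCGG, against 55.1% of the 4218 windows of all promoters in the matrix and 32.7% of all 32851 windows in the table. The AP-1 pattern TGANTCA was found in 7.14% of ion channel windows, 4.22% of the matrix's windows and 6.75% of all windows. The 5 genes with it were Cacng5, Kcnip3, Kcnip4, Kcnk2 and P2rx7. The cyclic AMP response element TGACGTCA was found in none of the 70, against 2.42% of the matrix's windows and 1.55% of all windows. The E-box CACGTG was found in 2.86%, against 7.66% and 6.02%. A TATA box, TATAAA, stood in 5.71% of ion channel windows, 7.82% of the matrix's windows and 12.4% of all windows. HindIII sites, AAGCTT, stood in the windows of Cacng5, Kcna10, Kcnf1 and Kcnk13, a share of 5.71% against 5.26% of the matrix's windows and 6.22% of all windows. Ion channel windows held a median of 7 CpG dinucleotides, compared with 14 in the windows of the other promoters of the matrix, and a median of 57.4% G and C compared with 59.6%. A motif match is a description of these letters and not evidence that a factor binds.

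The deposited score is a whole number per library and listing, and no score was listed in 84.9% of the ion channel cells of the matrix, which were entered as 0. A score of at least 5 counted as a called interaction, a cutoff in wide use on the scale of a particular capture Hi-C scoring program. The program and unit of these scores are not stated; they are whole numbers, up to 7354 among ion channels, and may be read numbers, so a call here means a value of 5 or more in an unknown unit. Libraries differed widely in size: the first and second Reactivated libraries held 32 and 335 fragments, the other 13 held 1500 to 10514. Within groups, 6 pairs shared 48.3% to 100% of the fragments of the smaller library, while the remaining pairs shared at most 16.7%. The 15 libraries were therefore also counted as 9 library sets. Basal 1 and 2 form 1 set, as do Early 3 and 4; Late splits into libraries 1 and 2 and libraries 3 and 4, and Reactivated splits the same way; Basal 3, Early 1 and Early 2 stand alone. The sequencing depth of the libraries is unknown.

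An ion channel promoter had a median of 7 listed fragments (quartiles 3.5 and 11), compared with 6 (3 and 11) for the 4354 other promoters, and the means were 8.16 and 8.21. The numbers ran from 1 fragment, for 6 promoters, to 27 for Dpp10. Promoters of voltage-gated potassium channels lay at the upper end: the 14 pore subunits had a median of 10 fragments and the 3 auxiliary subunits a median of 18. TRP channel promoters had the lowest median, 4.5, and voltage-gated calcium and sodium channel promoters had 5.5 each. These are descriptions of a single table, with no replicate measure of the number of fragments.

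**Figure D1:**
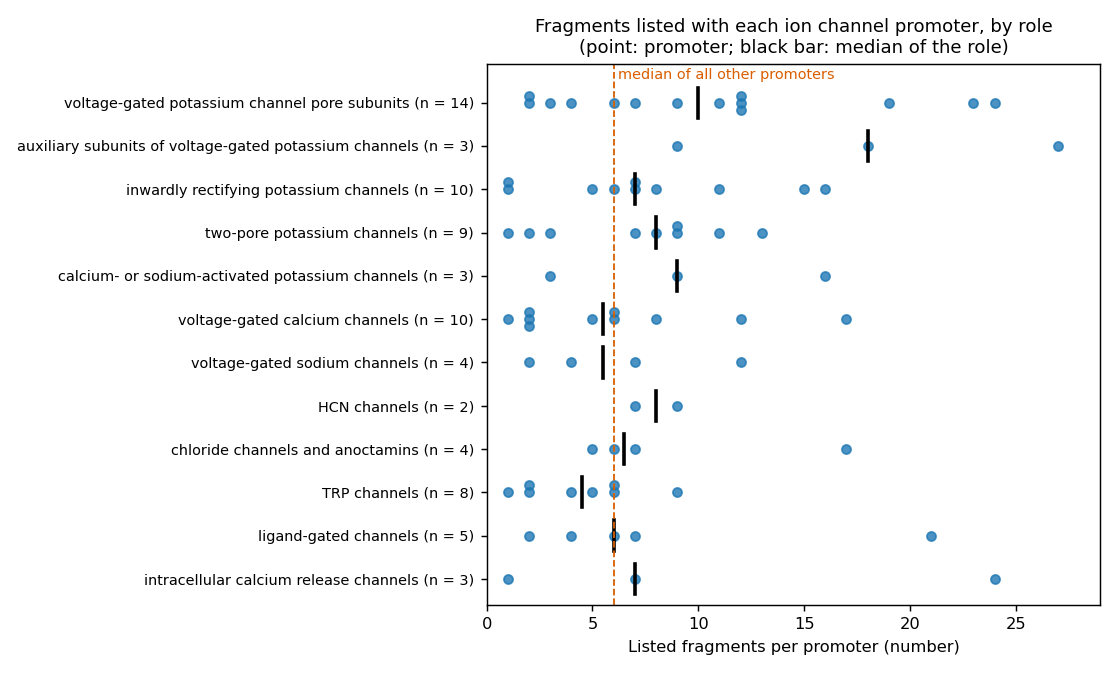
Listed fragments of each of the 75 ion channel promoters (x axis, number of fragments) by role (y axis, with the number of promoters); each point is a promoter, the black bar is the median of the role and the dashed line is the median of the other promoters, 6. Auxiliary subunits (median 18) and pore subunits (median 10) of voltage-gated potassium channels lie to the right of the line, TRP channels (median 4.5) to its left.

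Among the pore subunits, the largest sets belonged to Kcnq3 with 24 fragments and Kcnq5 with 23, which encode subunits of the channels behind the M-current, a slow brake on repetitive firing, and to Kcnf1 with 19, a silent subunit that works only together with other pore subunits. At the other end, Kcnh3 and Kcng3 had 2 fragments each. Of the auxiliary genes, Dpp10 had 27 fragments, Kcnip4 18 and Kcnip3 9; all 3 proteins bind the pore subunits of fast-inactivating A-type channels, which shape dendritic excitability. Some fragment of Kcnip4 was scored in 12 of the 15 libraries, and of Kcnq3 and Kcnf1 in 13 each.

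Inward rectifiers, which hold the membrane near rest, had a median of 7 fragments. The most belonged to Kcnj1, a channel best known from kidney, with 16, and Kcnj3, a subunit of the G protein-gated channels, with 15, and the fewest to Kcnj11 and Kcnj12, with 1 each. Two-pore potassium channels, which carry leak current, had a median of 8, led by Kcnk13 with 13. Kcnn2, the small-conductance calcium-activated channel of the afterhyperpolarization, had 16.

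Of the calcium channel promoters, Cacnb4 had the most fragments, 17, followed by Cacna2d3 with 12; they encode a cytoplasmic and an extracellular auxiliary subunit. The other beta subunits, Cacnb1 and Cacnb3, had 6 and 2, and the pore subunits had 6 (Cacna1c), 5 (Cacna1g), 2 (Cacna1h) and 1 (Cacna1a). The only Cacna1a fragment reached a score of 4 in a single library, so Cacna1a and Kcng3 were the 2 of the 75 promoters with no called interaction. Of the sodium channel promoters, the pore subunits Scn8a and Scn3a had 7 and 4 fragments and the auxiliary subunit Scn2b had 2.

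Among the remaining roles, Clcn3, a chloride-proton exchanger of endosomes, had 17 fragments. P2rx3, an ATP-gated channel known from sensory neurons, had 21. Ryr3, an intracellular calcium release channel, had 24, against 7 for the inositol trisphosphate receptor gene Itpr1 and 1 for Itpr2. Hcn3, for a channel of the pacemaker current, had 7, and Trpv4 had the most of the TRP genes, 9.

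The ion channel listing scored most often was a fragment of Kcna1, at chr6:126598328-126600290 (mm9). Kcna1 encodes a pore subunit of axonal potassium channels that limit excitability. The fragment scored 1376, 824 and 111 in the 3 Basal libraries and 347, 662, 667 and 338 in the Early ones. It scored 2737, 3369, 441 and 365 in Late and 0, 326, 2598 and 3219 in Reactivated. It was absent only from the library with 32 fragments, and it was seen in all 9 library sets. Among the 35741 listings of other promoters, 2 were scored in 14 libraries. No ion channel listing lay between 9 and 14, and how many listings of other promoters did is not given here. In at least 5 libraries, 6.37% of ion channel listings had a score, beside 7.96% of other listings.

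The next most recurrent were a fragment of Dpp10 (chr1:125945188-125949956) and a fragment of Hcn3 (chr3:88974805-88979885), each in 9 libraries. The Dpp10 fragment scored 117, 61 and 0 in Basal and 71, 484, 45 and 0 in Early. Its scores were 0, 0, 185 and 125 in Late and 0, 0, 410 and 340 in Reactivated. Kcnq3 (chr15:66115964-66116774), Kcnf1 (chr12:16808916-16815757) and Trpm4 (chr7:52602734-52604835) each had a fragment in 8 libraries. Ano8 (chr8:73134464-73146142), of the anoctamin family, and Kcnip4 (chr5:49908084-49913337) had theirs in 7. A fragment of Kcng1 tied with that of Kcnip4 in libraries and library sets and had a lower summed score. The fragments of Kcnf1, Trpm4 and Ano8 are each listed with 1 further promoter. Apart from that of Kcna1, none of these 8 fragments had a score in Late 1 or Late 2 other than Ano8, with 19 and 23. Groups overlapped for these fragments, except that Kcnq3 and Kcnf1 had no score in Basal and a score in each Early library.

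The Hcn3 fragment scored 843, 576 and 0 in Basal and 0, 8, 200 and 132 in Early. In Late 3 and 4 it scored 115 and 79 and in Reactivated 3 and 4 it scored 175 and 142, with 0 in the other 2 libraries of either group. The Kcnip4 fragment had no score in Basal, scored 275, 0, 701 and 386 in Early and 0, 0, 1275 and 963 in Late, and reached 1583 and 2018 in Reactivated 3 and 4. Both were thus present in library sets of 3 or more groups and absent from Late 1 and 2. The Trpm4 fragment was highest in Basal 1 and 2, at 606 and 392, and lay between 9 and 74 in its other 6 libraries. The Ano8 fragment scored 152 and 61 in Basal 1 and 2, 133 and 180 in Early 1 and 4, and 2148 in Reactivated 3 alone of its group.

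In the roles with no fragment among these 8, the best recurring fragment was seen in 4 to 6 libraries. For inward rectifiers it was a Kcnj1 fragment (chr9:32186194-32189525), at 205, 0 and 19 in Basal, 122 and 64 in Early 3 and 4, and 2545 and 3068 in Reactivated 3 and 4. For two-pore channels it was one of Kcnk12 (chr17:88537008-88545103), at 1838 and 1236 in Basal 1 and 2, 103 and 54 in Early 3 and 4, and 1042 and 1200 in Reactivated 3 and 4. Neither had a score in any Late library. Cacnb3 (chr15:98561048-98567253) scored 237 and 135 in Basal 1 and 2, 2 in Early 3, and 64 and 114 in Reactivated 3 and 4. Scn3a (chr2:65180115-65186518) scored 681 and 420 in Basal 1 and 2, 7 in Early 4, and 84 and 98 in Reactivated 3 and 4. These also lacked a score in Late. For sodium channels, a fragment of Scn8a (chr15:100753686-100756022) tied with that of Scn3a in libraries and library sets and had the higher summed score. It scored 9 in Basal 3, 131 and 68 in Early 3 and 4, 2119 and 1562 in Late 3 and 4, and had no score in Reactivated. A fragment of Ryr3 (chr2:112986942-112995218) was likewise absent from Reactivated, with 51 and 25 in Late 3 and 4, 5 in Basal 3 and 24 in Early 1, and that of Kcnn2 scored 432 and 305 in Late 3 and 4 and 831 and 1211 in Reactivated 3 and 4 only.

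**Figure D2:**
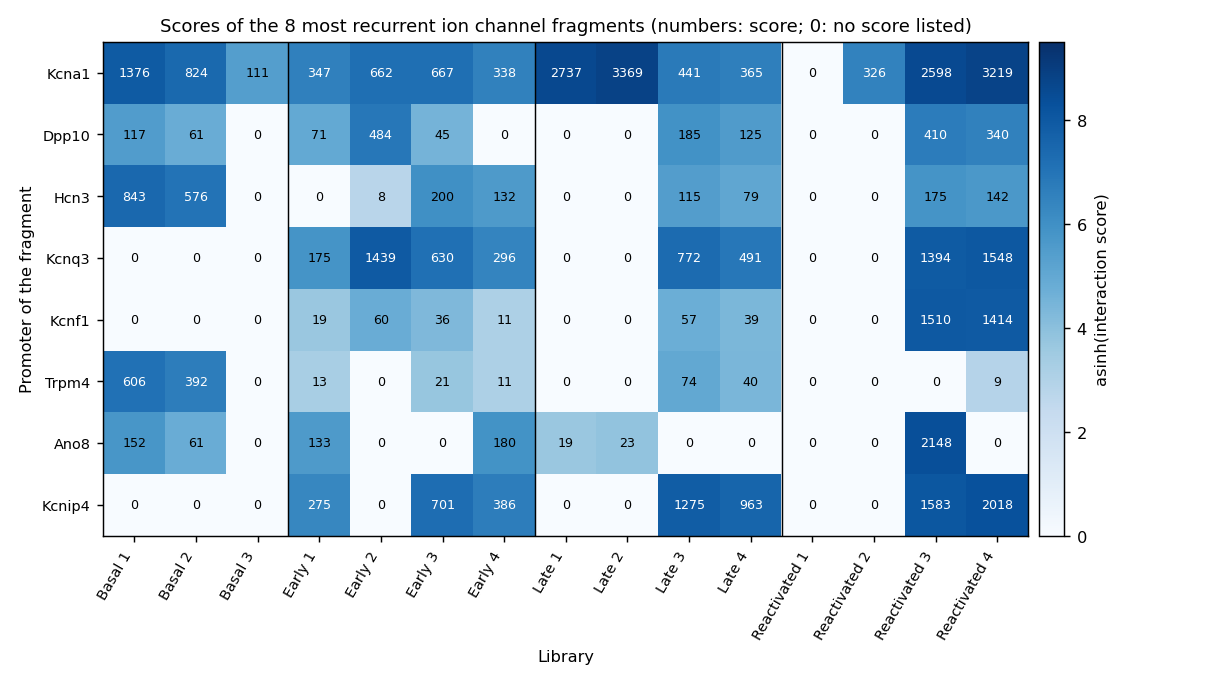
Interaction scores of the 8 most recurrent ion channel fragments (rows, named by promoter) in the 15 libraries (columns, black lines between groups), with the score printed and the shade giving its asinh. The Kcna1 row is filled in 14 of 15 libraries, and the Kcnq3 and Kcnf1 rows are 0 in all 3 Basal libraries.

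Over all 612 ion channel listings, 188 (30.7%) were scored in 1 library, compared with 32.7% for other promoters. A share of 33.2% (95% Wilson interval 29.6% to 37.0%, counting error only) was scored in at least 2 library sets, compared with 34.4%. In all 4 groups, 6 listings (0.98%) had a score, compared with 1.61%; they belonged to Kcna1, Dpp10, Hcn3, Trpm4, Ano8 and Kcnf1. Of the ion channel promoters, 28.0% had a fragment scored in 5 or more libraries, compared with 38.2% of the others, but 64.0% (48 of 75) had a called interaction in each of the 4 groups, compared with 54.2%. Pore subunits of voltage-gated potassium channels had 41.1% of their 146 fragments in at least 2 library sets and TRP channels 42.9% of 35, and calcium- or sodium-activated potassium channels had the lowest share, 21.4% of 28.

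Fragments that the matrix lists with several promoters made up 87 of the 612 listings (14.2%, compared with 15.4%) and involved 41 of the 75 promoters. Of these 87, 75.9% were scored in at least 2 library sets, against 26.1% of the 525 listed with 1 promoter, and the shares were 80.3% and 26.1% for other promoters. In each of the 127 pairings of such a listing with its partner, the scores were identical in all 15 libraries, so the score cannot be assigned to either gene. Of the 101 gene pairs formed, 100 could be placed by gene order in RefSeq; 44 lay within 10 protein-coding genes of each other and 9 were neighbours. Ion channel genes that shared fragments among themselves included Kcnj9 with Kcnj10, Cacnb4 with Kcnj3, and Kcna10 with Kcnc4. Kcnj9, for a neuronal G protein-gated subunit, and its neighbour Kcnj10, for the glial inward rectifier, shared 2 fragments; one scored 89 and 48 in Early 3 and 4 and the other 42 and 15 in Late 3 and 4. The fragment of Cacnb4 and Kcnj3 scored 3441 and 3489 in Reactivated 3 and 4 and had no score in the other 13 libraries.

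In promoters with a single largest cluster of fragments, most fragments lay close to each other. Fragments were joined where the gap to the next was at most 1 Mb; for the 57 ion channel promoters with a single largest cluster of 3 or more, 465 of their listings (80.4%) lay in it, compared with 81.7% for other promoters. For Kcnq5, 22 of 23 fragments lay in 972 kb, for Kcnf1 18 of 19 in 468 kb, and for Dpp10 22 of 27 in 2086 kb. Inside the largest cluster 37.4% of listings were scored in at least 2 library sets and the median top score was 148. Outside it the values were 15.9% and 29, compared with 21.3% and 51 for other promoters. The span from first to last fragment was taken for promoters with 2 or more fragments, all on 1 chromosome. Its median was 35129894 bp for 69 ion channel promoters, compared with 24157491 bp for 4001 others. Positions of the baits are not used here, so these are distances between fragments and not from the promoter.

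Library sets differed in how many listings they placed outside the largest cluster, for ion channels and for other promoters alike. Late 1 and 2 placed 36 of 87 ion channel listings there (41.4%), compared with 27.2% for other promoters. Late 3 and 4 placed 8 of 144 (5.56%, compared with 6.57%). Basal 1 and 2 placed 3.95% outside (compared with 9.07%) and Reactivated 3 and 4 placed 5.74% (compared with 8.07%). Basal 3, Early 1, Early 2 and the pair Early 3 and 4 lay between 17.7% and 26.7%. For other promoters these last sets lay between 20.0% and 22.9%. P2rx3 showed the pattern most fully: its 21 fragments fell into 12 clusters along chromosome 2, and 11 lay outside the largest. Late 1 and 2 scored 11 and 10 P2rx3 fragments, with scores of 9 to 35, and Late 3 and 4 scored 1 each.

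The number of called ion channel interactions per library was 74, 64 and 84 for Basal, 96, 34, 80 and 111 for Early, 59, 61, 132 and 127 for Late, and 0, 1, 189 and 200 for Reactivated. The mean ± SD was 74.0 ± 10.0 (n = 3), 80.2 ± 33.3, 94.8 ± 40.2 and 97.5 ± 112 (n = 4 each), so all groups overlapped. Per promoter, the counts followed those of other promoters in the same library: as group means, 0.987 against 1.09 for Basal, 1.07 against 1.15 for Early, 1.26 against 1.28 for Late and 1.30 against 1.30 for Reactivated. Pooling the libraries of a group, Basal had 151 called ion channel interactions, Early 229, Late 227 and Reactivated 209; without Basal 3 the Basal number was 77, and without Early 1 the Early number was 147. These are 24.7%, 37.4%, 37.1% and 34.2% of the 612 listings, beside 27.2%, 39.9%, 36.8% and 33.8% of the listings of other promoters. Called in that group alone were 51, 112, 122 and 112 (8.33%, 18.3%, 19.9% and 18.3%), beside 8.96%, 20.8%, 18.8% and 17.4% for other promoters.

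**Figure D3:**
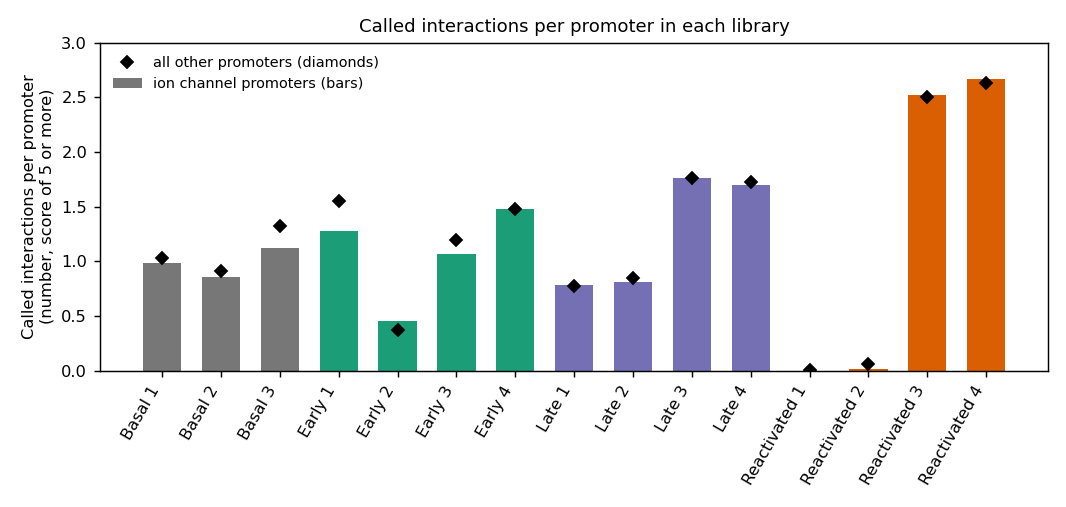
Called interactions (score of 5 or more) per promoter in each of the 15 libraries, with bars for the 75 ion channel promoters and diamonds for the 4354 other promoters. The bars track the diamonds in every library, and the first and second Reactivated libraries are near 0.

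Between groups, called ion channel interactions coincided in part: 49 were called in both Basal and Early, 32.5% of the Basal list and 21.4% of the Early list, beside 33.5% and 22.8% for other promoters. Basal and Late shared 58 (38.4% and 25.6%, beside 33.4% and 24.7%), and Basal and Reactivated 36 (23.8% and 17.2%, beside 28.7% and 23.1%). Early and Late shared 54 (23.6% and 23.8%, beside 23.4% and 25.4%), and Early and Reactivated 61 (26.6% and 29.2%, beside 22.2% and 26.2%). Late and Reactivated shared 40 (17.6% and 19.1%, beside 19.8% and 21.5%). For Dpp10, 16 fragments were called in Early and 12 in Reactivated, and 2 of them were the same. For Kcnq5, 13 were called in Late and 10 in Reactivated, and 3 were the same.

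The 4 groups were compared in pairs to ask whether contacts of these promoters differ between the stages the group names stand for. A linear model (limma) was fitted on the whole table with all 15 libraries for 3 measures: the mean asinh score of a promoter over its fragments, its number of called interactions, and the asinh score of each listing; asinh is close to a logarithm for large scores and is 0 at 0. No ion channel promoter or listing passed an adjusted p of 0.05 in any of the 6 comparisons. The background was nearly as low. For the mean score, 0% of all 4429 promoters passed in Early against Basal, 0.0903% in Late against Early, 0.0677% in Reactivated against Late, 0.0677% in Late against Basal, 0.0226% in Reactivated against Basal and 0% in Reactivated against Early. For called interactions (4403 promoters with a call, 73 of them ion channels) and for the 36353 listings, 0% passed in all 6.

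By unadjusted p under 0.05 in limma, the mean score singled out 1, 6, 14, 4, 6 and 7 of the 75 ion channel promoters in the same order of comparisons, or 1.33%, 8.00%, 18.7%, 5.33%, 8.00% and 9.33%. The shares over all promoters were 5.83%, 6.95%, 13.8%, 8.2%, 11.2% and 11.3%. For called interactions the counts were 2, 8, 12, 5, 6 and 7 of 73 (2.74%, 11.0%, 16.4%, 6.85%, 8.22% and 9.59%), beside 4.57%, 9.54%, 14.4%, 8.47%, 8.88% and 10.7% of all promoters. For listings they were 59, 88, 173, 70, 138 and 141 of 612 (9.64%, 14.4%, 28.3%, 11.4%, 22.5% and 23.0%), beside 10.6%, 15.1%, 26.2%, 12.9%, 20.3% and 21.3% of all listings. The median difference in mean score was 0, 0.10, 0.34, 0.04, 0.34 and 0.37 for ion channels and 0, 0.06, 0.18, 0.15, 0.31 and 0.26 for all promoters. In mean score, the ion channel share was above that of all promoters in 2 of the 6 comparisons, Late against Early and Reactivated against Late, and below it in the other 4.

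In Early against Basal, the largest difference in called interactions was at Dpp10, with 8, 4, 3 and 6 in Early and 2, 1 and 0 in Basal. The groups did not overlap, and the difference of 4.25 (SE 2.35) had an adjusted p of 0.899 in limma. Together the Early libraries called 16 different Dpp10 fragments, so they mostly called different ones. How often groups fail to overlap over all promoters was not counted, here or in the comparisons below. Kcng1, another silent potassium channel subunit, had 4, 1, 4 and 3 against 1, 0 and 0. In the other direction were Kcnf1, with 3, 2, 4 and 4 against 4, 5 and 8 (difference -2.42), and Trpm4, a calcium-activated cation channel, with 2, 0, 2 and 2 against 5, 5 and 1. Trpm4 also had the largest negative difference in mean asinh score, -2.58 (SE 1.11, adjusted p 0.819), and Basal 3, at 0.72, lay below Early 1, 3 and 4. The positive differences in mean score at Trpm2 (1.40) and P2rx7 (1.14) rested on Early 1 alone. The negative difference at Cacng8 (-1.56), a relative of calcium channel gamma subunits that serves AMPA receptors, rested on Basal 1 and 2.

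In Late against Early, Dpp10 again differed most in called interactions, with 0, 0, 2 and 2 in Late against 8, 4, 3 and 6 (difference -4.25, adjusted p 0.525 in limma), and the groups did not overlap. Kcnk13, for a leak channel best known from microglia, had 0, 1, 0 and 0 against 3, 0, 3 and 3. Kcnq5 had 1, 0, 11 and 13 in Late against 0, 3, 4 and 3, and P2rx3 had 11, 10, 1 and 1 against 3, 0, 3 and 5. For both, the Late libraries split by library set, with Kcnq5 high in Late 3 and 4 and P2rx3 high in Late 1 and 2. The largest positive differences in mean score, at Kcnj12 (3.19, adjusted p 0.486) and Kcnh3 (2.14, adjusted p 0.669), came from Late 3 and 4 alone, and the negative ones at Trpm2 and P2rx7 from Early 1 alone.

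The smallest p of any ion channel promoter was that of Chrna10, a nicotinic acetylcholine receptor subunit known from hair cells of the inner ear; it was chosen for that p after the values were seen. Its mean asinh score was 2.09, 2.20, 1.87 and 1.81 in Late and 0 in all 4 Early and all 4 Reactivated libraries, and 0, 0 and 1.44 in Basal. The difference of 1.99 (SE 0.447) had an adjusted p of 0.120 in Late against Early and 0.103 in Reactivated against Late. The 4 fragments behind it differed between library sets: Late 1 and 2 scored 35 and 40 at chr7:107735636-107740145, and Late 3 and 4 scored 878 and 703 at chr7:109261043-109262564. The other 2 fragments were each seen in Basal 3 and in Late 1 or Late 2, so no fragment was common to all Late libraries. In Late against Early, Chrna10 passed in limma with quantile normalization (adjusted p 0.0346) and with fragments listed with 1 promoter (0.0222). It also passed with the 2 groups alone (0.00272), without Reactivated 1 and 2 (0.0153) and without Basal 3 (0.0469). It did not pass in the primary fit or the other alternatives, among them the one averaging library sets. Fits that passed entered the libraries of a set as separate samples. Without Basal 3, 0.0903% of all promoters passed, and for the other passing settings that share is not given here.

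In Reactivated against Late, Dpp10 had 0, 0, 12 and 12 called interactions against 0, 0, 2 and 2 (difference 5.00, adjusted p 0.265 in limma), and Itpr1 had 0, 0, 6 and 6 against 0, 0, 1 and 1. Ryr3 had 0, 0, 3 and 4 against 1, 1, 10 and 10, and P2rx3 0, 0, 5 and 4 against 11, 10, 1 and 1. In mean score, Itpr2 (3.14, adjusted p 0.278) and Trpc4ap (3.06, adjusted p 0.278) had scores in Reactivated 3 and 4 and in no other library, and Kcnj12 (-3.19, adjusted p 0.278) and Kcnk1 (-2.13, adjusted p 0.287) stood high in Late 3 and 4. All of these values divide the groups along their library sets.

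In Late against Basal, Cacnb4 had 4, 6, 2 and 2 called interactions in Late and 0 in each Basal library, groups that did not overlap, and the difference of 3.50 (SE 1.23) had an adjusted p of 0.285 in limma. Late 1 and 2 and Late 3 and 4 called different Cacnb4 fragments. Kcnq5 had 1, 0, 11 and 13 against 1, 1 and 0 (difference 5.58, adjusted p 0.496). Trpm4 had 0, 0, 3 and 3 against 5, 5 and 1 and Kcnf1 2, 3, 6 and 5 against 4, 5 and 8, and both overlapped. In mean score, the largest negative differences were those of Trpm4 (-2.24) and Cacnb3 (-1.96, adjusted p 0.814), and the largest positive ones those of Kcnj12 (3.19) and Kcnk1 (2.28).

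Against Basal and against Early, the Reactivated values came from libraries 3 and 4. Dpp10 (0, 0, 12 and 12 against 2, 1 and 0 in Basal; difference 5.00, adjusted p 0.458 in limma) and Kcnq5 (0, 0, 10 and 10 against 1, 1 and 0; 4.33, adjusted p 0.595) had the largest positive differences from Basal, and Trpm4 (-2.67) and Kcnq3 (-2.08) the largest negative ones. Against Early, Kcnq5 (2.50) and Itpr1 (1.75) had the largest positive differences, Itpr1 tying with Kcnj14, Kcnk2 and Kcns2, and Kcnj1 and Kcnq3 (-1.50 each) the largest negative ones, with adjusted p of 0.558 to 0.920. In mean score, Itpr2 (3.14) and Trpc4ap (3.06) had the largest positive differences in both. The largest negative ones were those of Trpm4 (-2.78) and Kcnk10 (-0.87) against Basal, and of Trpm2 (-1.40) and P2rx7 (-1.14) against Early. Itpr2 and Trpm2 have 1 listed fragment each, Trpc4ap, P2rx7 and Kcnk10 have 2 and Trpm4 has 6, whereas Dpp10 has 27 and Kcnq5 23. A mean over few fragments can move most, and a count of calls can do so where many fragments are listed.

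**Figure D4:**
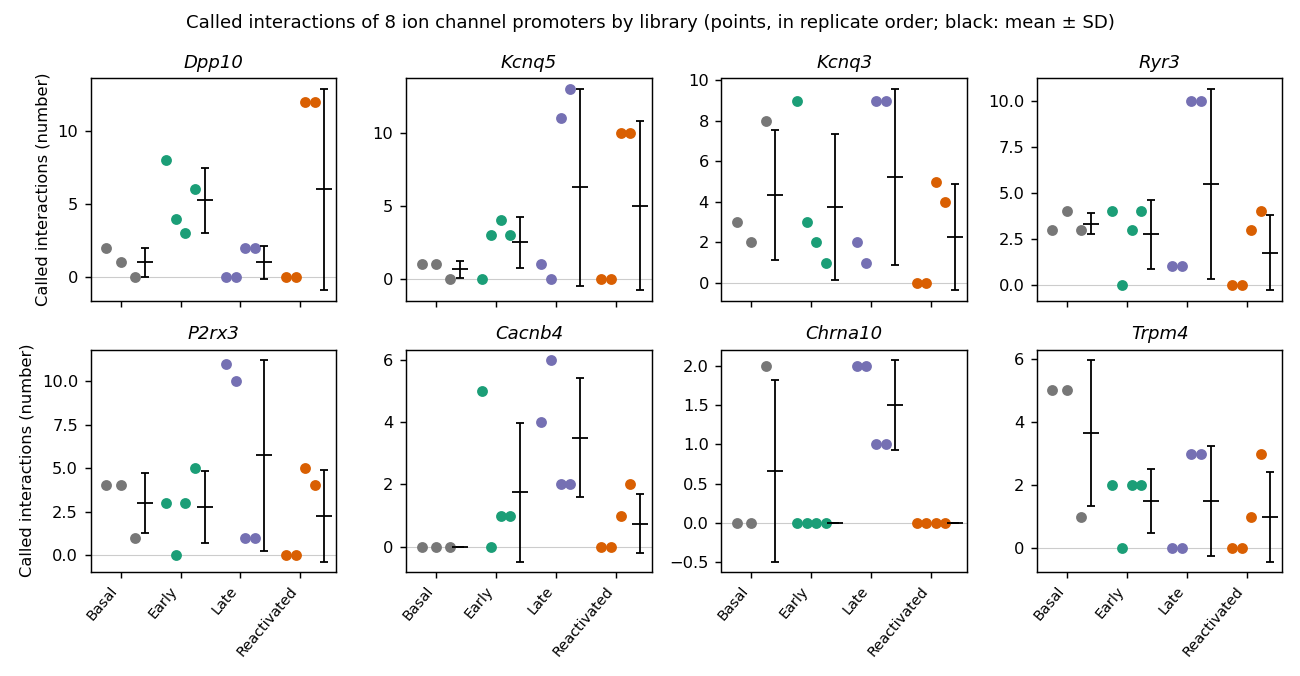
Called interactions (y axis, number) of 8 ion channel promoters in each library, with points in replicate order, and the mean ± SD of each group in black. Dpp10 has 3 to 8 in Early and 0 to 2 in Basal and Late; Kcnq5, P2rx3 and Ryr3 split within Late into a high and a low pair.

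These counts depended on single libraries. Without the first and second Reactivated libraries, Reactivated is 1 library set, and limma passed 36 of 75 ion channel promoters in mean score against Late, 36 against Basal and 41 against Early (48.0%, 48.0% and 54.7%), beside 43.8%, 45.6% and 45% of all promoters. In called interactions, 25, 20 and 23 of 73 passed (34.2%, 27.4% and 31.5%), beside 28.1%, 29.1% and 29.4% of all promoters. Of the 612 ion channel listings, 168, 168 and 166 passed (27.5%, 27.5% and 27.1%), beside 25.1%, 24.9% and 25.1% of all listings. Without Basal 3, Basal is likewise 1 library set, and 38 ion channel listings passed in Early against Basal, 37 in Late against Basal and 37 in Reactivated against Basal (6.21%, 6.05% and 6.05%), beside 5.76%, 6.15% and 6.24% of all listings. Without Reactivated 1 alone, 97, 74 and 89 ion channel listings passed in Reactivated against Late, Basal and Early (15.8%, 12.1% and 14.5%), beside 13.5%, 10.9% and 12.7% of all listings. Without Reactivated 2 alone, 98, 86 and 92 passed (16.0%, 14.1% and 15.0%), beside 13.6%, 12.3% and 12.9%. Without Early 1, 2, 2 and 3 passed in Early, Late and Reactivated against Basal (0.327%, 0.327% and 0.490%), beside 0.473%, 0.567% and 0.426%. When library sets were averaged and each entered once, no ion channel promoter or listing passed in any comparison.

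Apart from the models, fragments were sought that had a score in every library of a group and in none of another. In Early and not Basal there were 2 of the 612 ion channel listings, beside 0.0715% of all listings, and in Basal and not Early 4, beside 0.875%. Basal against Late gave 3 (0.869% of all) and Basal against Reactivated 5 (0.985%). No ion channel listing was found in Late and not Early (0.239% of all), Early and not Late (0.044%), Reactivated and not Late (0.00275%), Late and not Reactivated (0.311%), Late and not Basal (0.237%), Reactivated and not Basal (0%), Reactivated and not Early (0.00275%) or Early and not Reactivated (0.0743%). Reactivated 1 scored no ion channel listing and Reactivated 2 scored 3. Counts for Reactivated and not another group were therefore fixed at 0 in advance. Absence from Reactivated rested almost wholly on Reactivated 3 and 4, which form 1 library set. The 2 listings of Early make up 0.327% of the ion channel listings, and the 4 of Basal 0.654%.

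The 2 fragments of Early are the recurrent ones of the M-current gene Kcnq3, at 175, 1439, 630 and 296 in Early, and of Kcnf1, at 19, 60, 36 and 11. Both had no score in Basal, in Late 1 and 2 or in Reactivated 1 and 2, and they had scores of 772 and 491, and 57 and 39, in Late 3 and 4. In Reactivated 3 and 4, Kcnq3 scored 1394 and 1548 and Kcnf1 1510 and 1414. The differences between Early and Basal on the asinh scale were 6.84 (SE 2.97, adjusted p 0.416) and 3.95 (SE 2.54, adjusted p 0.561) in limma.

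The fragments of Basal spanned several roles. At Kcnk3, a leak channel set by pH, the fragment at chr5:30725437-30726264 scored 115, 89 and 7 in Basal and was absent from the other 12 libraries (difference -4.42, SE 1.50, adjusted p 0.185 against Early in limma). Kcnc4, for a pore subunit of rapidly inactivating channels, had a fragment (chr3:107391226-107400967) that scored 719, 403 and 6 in Basal and 4 in Early 1. Cacnb1 (chr11:97909367-97919425) scored 229, 123 and 12 in Basal and 18 in Late 4. Each of these 3 was confined to Basal but for at most a single library.

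Other Basal fragments also had scores in several libraries of another group. Kcnip4 (chr5:49753372-49756661) scored 576, 323 and 27 in Basal and 1278 and 938 in Late 3 and 4. Hcn3 (chr3:89049961-89053198), a fragment listed with 6 promoters, scored 661, 414 and 15 in Basal, 134, 3011 and 2257 in Late 2, 3 and 4, and 1936 and 1924 in Reactivated 3 and 4. Trpv4 (chr5:115076008-115085817), for an osmosensitive cation channel, scored 1735, 1107 and 31 in Basal, 156 in Early 1 and 116 and 154 in Reactivated 3 and 4. P2rx3 (chr2:84659921-84663216) scored 396, 217 and 8 in Basal, 96 and 62 in Early 3 and 4, and 20 in Late 1. In all 7 Basal fragments, Basal 3 had the lowest Basal score, at 6 to 31, and none passed the test, with adjusted p from 0.181 to 0.469.

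**Figure D5:**
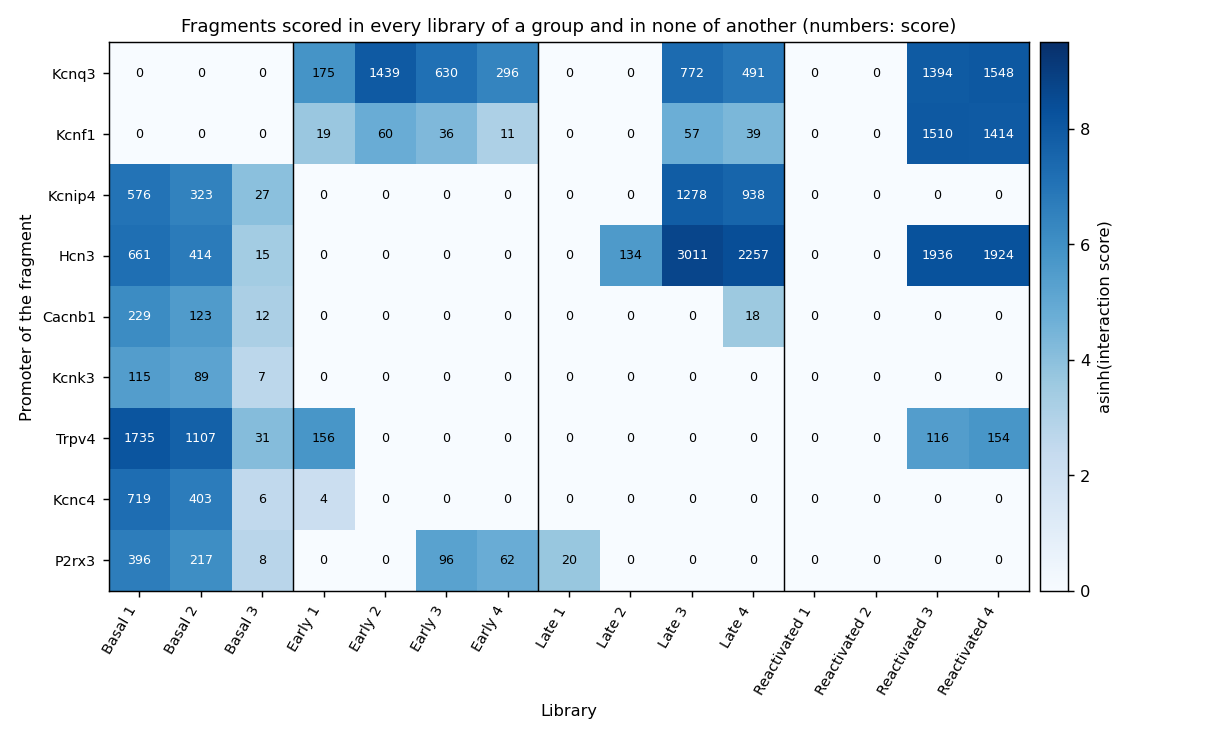
Scores of the 9 ion channel fragments scored in every library of a group and in none of another (rows, by promoter) across the 15 libraries (columns), shaded by asinh. Basal 3 is the palest Basal column in each of the lower 7 rows, at 6 to 31, and Kcnk3 has a score in Basal only.

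Genes that anchor, traffic or modulate channels gave a similar picture. Of 67 such genes listed for this description, 21 had a promoter in the matrix, with 202 fragments, a median of 8 per promoter and 34.2% of fragments in at least 2 library sets. Orai2, for a store-operated calcium channel, and Pex5l, for a partner of HCN channels, had 16 fragments each. Jph4, a junctophilin that ties the endoplasmic reticulum to the cell membrane, had a fragment in 9 libraries, and Fgf11, Lrrc8a and Slc8a2 each had a fragment in 8.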

How the data were processed

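Promoter-capture Hi-C of sorted mouse hippocampal nuclei was measured in 15 libraries. The deposited values are the authors' whole-number interaction score per promoter, fragment and library, per the file headers, on build mm9, per the submitters' processing notes. For the aligner, the scoring program and its filters, a name or version was not given in the sources used here. Sequencing depth is unknown, and library score sums ran from 3097 to 8218430, so a difference in score can carry one in depth. Missing scores were entered as 0. No sample was left out or imputed in the primary analysis.

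Groups came from the sample titles. Scores were taken as asinh(score), and 3 measures were fitted on the whole table with limma 3.58.1 (statmod 1.5.0, R 4.3.3), with a variance trend, a robust empirical Bayes step and Benjamini-Hochberg adjustment at 0.05. The code was tested on simulated data. Alternatives changed the scale, normalization, variance model, call threshold (3 or 10 in place of 5), fragments, filters, libraries and the replicate block. Other steps used scipy 1.17.1, numpy 2.4.6, pandas 2.3.3 and, for plots, matplotlib 3.10.9, all under Python 3.11.15.

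The promoters and lists were chosen with earlier results of these data known. Named are, per role, the promoter with the most fragments and that with the best recurring fragment, the 8 most recurrent fragments (1 per promoter), in each comparison the 2 largest differences each way in called interactions and in mean score, fragments scored in every library of a group and none of another (the 3 largest differences each way), and fragments shared between promoters. Chrna10 (smallest p), the further fragments scored in every library of a group, the clustering of fragments by distance and other promoters named for few or many fragments were chosen after their values were seen. Values of a few genes that this rule or these lists cover are not reported here.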

Additional observations from a re-analysis of the deposited data

Results flagged for a closer look

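For the recurrent ion channel fragments, the called ion channel interactions and the median ion channel score, 30 groups of 4 libraries were examined for a library far from the rest. A recurrent fragment was marked in 3 of them. For normally spread values chance marks about 1 in 20 groups. That rate does not hold for these scores, because a single score beside 0 in all other libraries is always marked. The Dpp10 fragment scored 484 in Early 2 and 0 to 71 in the other Early libraries. The Ano8 fragment scored 2148 in Reactivated 3 and 0 in the other 3 Reactivated libraries, including Reactivated 4 of the same library set. The Trpm4 fragment scored 9 in Reactivated 4 and 0 in the other 3.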

How the results depend on the processing

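No ion channel promoter passed in any primary comparison. For the mean score, 1 passed in Late against Early with quantile normalization, without Reactivated 1 and 2, with fragments listed with 1 promoter and with only the groups compared; 1 passed in Reactivated against Late with quantile normalization and with fragments listed with 1 promoter, and 1 in Late against Basal with only the groups compared, which also gave 1 for called interactions there. Without Reactivated 1 and 2, the mean score gave 36 (Reactivated against Late), 36 (against Basal) and 41 (against Early). Called interactions gave 25, 20 and 23, and the report sets the shares of all promoters beside both. In the same setting 63, 62 and 62 promoters had at least 1 passing listing, with 1 each in Early and Late against Basal. For these the report gives shares of listings only, not the share of all promoters with a passing listing. Scored as listed or not, promoters with a passing listing numbered 1 (Early against Basal), 2 (Late against Early), 1 (Late against Basal) and 1 (Reactivated against Basal). Without the variance trend such promoters numbered 3, 2 and 3 in the comparisons of Early, Late and Reactivated with Basal. Except where the report gives them, the shares over all promoters or listings are not set beside these counts. Such counts therefore cannot be read as particular to ion channels.

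Leaving out 1 library at a time, the mean score gave 0 to 1 (Late against Early), 0 to 5 (Reactivated against Late), 0 to 1 (Late against Basal) and 0 to 4 (Reactivated against Early). Called interactions gave 0 to 4, 0 to 2 and 0 to 2 for Reactivated against Late, Basal and Early. Without Reactivated 1 or 2, these counts were 5.33% to 6.67% of ion channel promoters in mean score, beside 2.82% to 3.50% of all promoters, and 1.37% to 5.48% in called interactions, beside 1.98% to 4.38%. Ion channel promoters with at least 1 passing listing numbered 0 to 28 (Early against Basal), 0 to 49 (Reactivated against Late) and 0 to 26 (Late against Basal). They numbered 0 to 45 (Reactivated against Basal) and 0 to 50 (Reactivated against Early). Counts above 0 came without Basal 3, Reactivated 1, Reactivated 2 or Early 1, and the shares of listings stand in the report beside those of all listings. The share of listings in at least 2 library sets ran from 28.57% to 33.95% and that called in 1 group only from 64.72% to 69.54%; called interactions ran from 77 to 151 in Basal and from 147 to 229 in Early. With fragments listed with 1 promoter, these were 26.1%, 70.48%, 121 in Basal, 183 in Early and 186 in Late; called at 10, the share in 1 group was 59.64% and Basal had 121. The cause was not tested.

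Kcnq3 reversed in called interactions: 0.167 against Basal and 0.75 against Early without Reactivated 1 and 2, and -2.42 to 0.25 against Early leaving out 1 library, the positive value without Early 1. Of 1133 alternatives for the 48 named promoter results, 1107 kept direction and side of the threshold, 23 newly passed and 3 reversed.

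Same-numbered libraries did not pair: 0 of 21 pairs correlated above 0.1 (-0.068 to 0.067), and 4 of 15 libraries correlated best with their own number. With the replicate block, 0 ion channel promoters passed in all 18 tests.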
